A study of Mus musculus with 4 samples.

Results

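Type 1 conventional dendritic cells (cDC1s) were described in droplet single-cell RNA sequencing of CD45+ cells, which are leukocytes, from the salivary glands of 20-day-old mice. The mice were of the background given in the labels as C56BL/6. Csf2-/- mice lack both functional copies of Csf2, the gene for the growth factor GM-CSF, and Csf2+/- mice, the controls, keep 1 copy. Each genotype had 1 female and 1 male library, and each library pooled 2 mice, so n = 2 libraries per genotype and no wild-type library is part of the comparison. The loss is germline, so an effect of GM-CSF on the cDC1s themselves and an effect passed on by other cells cannot be told apart. The comparison addresses which features of these cells differ when GM-CSF is missing.

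The cDC1s were chosen by their raw counts of unique molecular identifiers (UMIs), each standing for 1 captured transcript. A barcode was taken with at least 3 UMIs of Xcr1 and Clec9a together and at least 10 of H2-Ab1. It could hold at most 10 UMIs of C1qa, C1qb and C1qc together, fewer than 2 of Ccr7 and 0 of Cd3e, Cd3d and Cd3g. The rule found 425 cells among 37644 barcodes that passed quality filters, 91 and 121 in the Csf2-/- female and male libraries, against 109 and 104 in the Csf2+/- female and male libraries. Levels of the genes in this rule are a description and carry no test.

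cDC1s are the branch of dendritic cells specialised in taking up material from dying cells and presenting it to CD8 T cells. Their development depends on the transcription factors Irf8 and Batf3 and on the growth factor receptor Flt3. In many non-lymphoid organs they carry the integrin subunit CD103, the product of Itgae, which pairs with integrin beta 7 and binds E-cadherin on epithelium. GM-CSF signals through a receptor made of Csf2ra and the shared chain Csf2rb to the kinase Jak2 and the factor STAT5, and in cultured mouse dendritic cells it induces CD103 and the chemokine Ccl17.

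The library check fitted the labels. Csf2 stood at 4.4 and 5.29 CPM (UMIs scaled to a sum of 1000000 per library and gate) in the Csf2-/- female and male cells gated as group 2 innate lymphoid cells, against 95.5 and 108 CPM in Csf2+/- cells (log2 change -4.37, SE 0.12, edgeR adjusted p = 5.49e-07). In the cDC1s Csf2 had 0 UMIs in 3 of 4 libraries. The libraries held between 111981802 and 122366588 UMIs, and cDC1s were rich in RNA, with median UMIs per cell of 17324 and 18911 in the Csf2-/- libraries and 20026 and 20652 in the Csf2+/- libraries. The Csf2-/- cells were thus read less deeply, and their median mitochondrial share was lower, at 1.5% and 1.69%, against 1.86% and 2.00%. Between 20 and 38 barcodes were shared by each pair of libraries, 0 of them among the cDC1s. By Scrublet scores 0 and 5 of the Csf2-/- and 5 and 6 of the Csf2+/- cDC1s were marked as doublets. The automatic threshold was used in the Csf2-/- libraries, and a cut near the expected share in the Csf2+/- libraries. The removal rule thus differed by genotype, which limits each result given below without doublets.

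The label held up against markers outside the rule. Wdfy4, needed for cross-presentation of cell-associated antigen, had a UMI in 100% of cDC1s in each library. Irf8 was detected in 97.8% and 100% of Csf2-/- cells and in 100% of Csf2+/- cells of both libraries, and Batf3 in 89.0% and 85.1%, against 86.2% and 87.5%. Sirpa, a marker of the sister branch cDC2, had a UMI in 8.79% and 9.92% of Csf2-/- cDC1s and in 6.42% and 9.62% of Csf2+/- cDC1s. Of the markers given for these cells, Itgae was the exception, since its detection differed widely between genotypes.

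Beyond Xcr1 and Clec9a, the genes with the highest level in cDC1s relative to all other kept barcodes were Gpr141b at 99.8 times, Septin3 at 75.5 times and Htr7 at 63.5 times. They were followed by the fatty acid receptor Ffar4 at 38.8 times, Tlr3, a sensor of double-stranded RNA, at 37.7 times, and Hepacam2 at 33.2 times. Gcsam, Cldn1, Ccser1, Ifi205, Rtl8b and Rtl8a ranged from 26.9 down to 19.3 times, and Wdfy4 stood at 21.8 times. Itgae averaged 3.42 times the level of all other barcodes over both genotypes together, and its level differed widely between them. These ratios describe cells chosen by their expression and carry no test.

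At the edge of the rule, 16 and 18 Csf2-/- and 10 and 6 Csf2+/- cells had 3 or 4 UMIs of Xcr1 and Clec9a, just inside it. With 2 UMIs, just outside, there were 10 and 15 Csf2-/- and 7 and 6 Csf2+/- cells. An Itgae UMI was present in 0% and 0% of the cells just inside in Csf2-/- libraries and in 30% and 33.3% of those in Csf2+/- libraries. Among cells with 1 UMI, most carried the cDC2 lectin Cd209a, in 76.0% and 84.2% of Csf2-/- and 91.3% and 85.0% of Csf2+/- cells. Of 135 and 180 Csf2-/- and 147 and 143 Csf2+/- barcodes with at least 3 UMIs of Xcr1 and Clec9a, the limit on C1q genes met 20 and 31 Csf2-/- and 14 and 16 Csf2+/- barcodes.

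The share of cDC1s among leukocytes was not detectably different between genotypes. They made up 0.933% and 1.26% of kept barcodes in Csf2-/- glands, against 1.14% and 1.19% in Csf2+/- glands, a mean of 1.10 ± 0.234% against 1.16 ± 0.0348% (SD, n = 2 per genotype). The groups overlapped, since the Csf2-/- libraries held both the lowest and the highest share. The log2 change of the share was -0.08 (SE 0.28, edgeR's quasi-likelihood test, adjusted p = 0.936 over 11 gates), and the exact two-sided permutation test gave p = 1, where 2 against 2 libraries cannot go below 0.333. Relative to the cells of the cDC1, cDC2 and Ccr7-positive dendritic gates together, cDC1s made up 24.1% and 24.4% in Csf2-/- and 21.6% and 23.3% in Csf2+/- glands. That difference did not pass the test either, with a log2 change of 0.12 and an adjusted p of 0.392 by edgeR. Sorting for CD45 sets the denominator of the first share.

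Dividing cells, with at least 2 UMIs of Mki67 and Top2a together, were 28.6% and 40.5% of Csf2-/- cDC1s and 32.1% and 34.6% of Csf2+/- cDC1s. The groups overlapped (34.5 ± 8.43% against 33.4 ± 1.77%, SD, n = 2 per genotype, exact two-sided permutation p = 1). After thinning each cell to 3000 UMIs dividing cells made up 15.6% and 27.3% of Csf2-/- cDC1s, against 13.9% and 14.4% of Csf2+/- cDC1s, no longer overlapping, and the exact p of 0.333 is the smallest this design allows.

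The largest differences between genotypes in cDC1s were the near loss of Ccl17 and Itgae in Csf2-/- cells, and 19 of 20 called genes were lower. UMIs were summed over the cDC1s of each library and tested with edgeR's quasi-likelihood test, with p-values adjusted by Benjamini-Hochberg over all genes tested. Of 8969 genes tested outside the rule, 1 was higher in Csf2-/- cDC1s (0.0111% of those tested) and 19 were lower (0.212%) at an adjusted p under 0.05. At an unadjusted p under 0.05 there were 954 of these 8969 genes. Leaving out a library changed these counts, to 65 genes up and 237 down with the Csf2-/- female library left out, 26 and 58 with the Csf2-/- male left out, 22 and 94 with the Csf2+/- female left out, and 3 and 26 when the Csf2+/- male was left out. The 20 calls were kept in the first 3 of these fits and 13 of them in the last, which lost Lima1, Gem, Dapk1, Plxdc2, Tmem176a, Rab8b and Eps8. After thinning cells to 3000 UMIs, which left 4260 genes tested, 4 of the 20 were still called, Ccl17, Itgae, Mtss1 and Dapk1. With sex as a replicate block edgeR called 24 higher and 133 lower, the 20 calls among them. The log2 values of all genes were balanced, with 4486 above and 4483 below 0. Groups that did not overlap were common, with 19.9% of genes lower and 21.0% higher in both Csf2-/- libraries, which is the background for such separation.

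**Figure D1:**
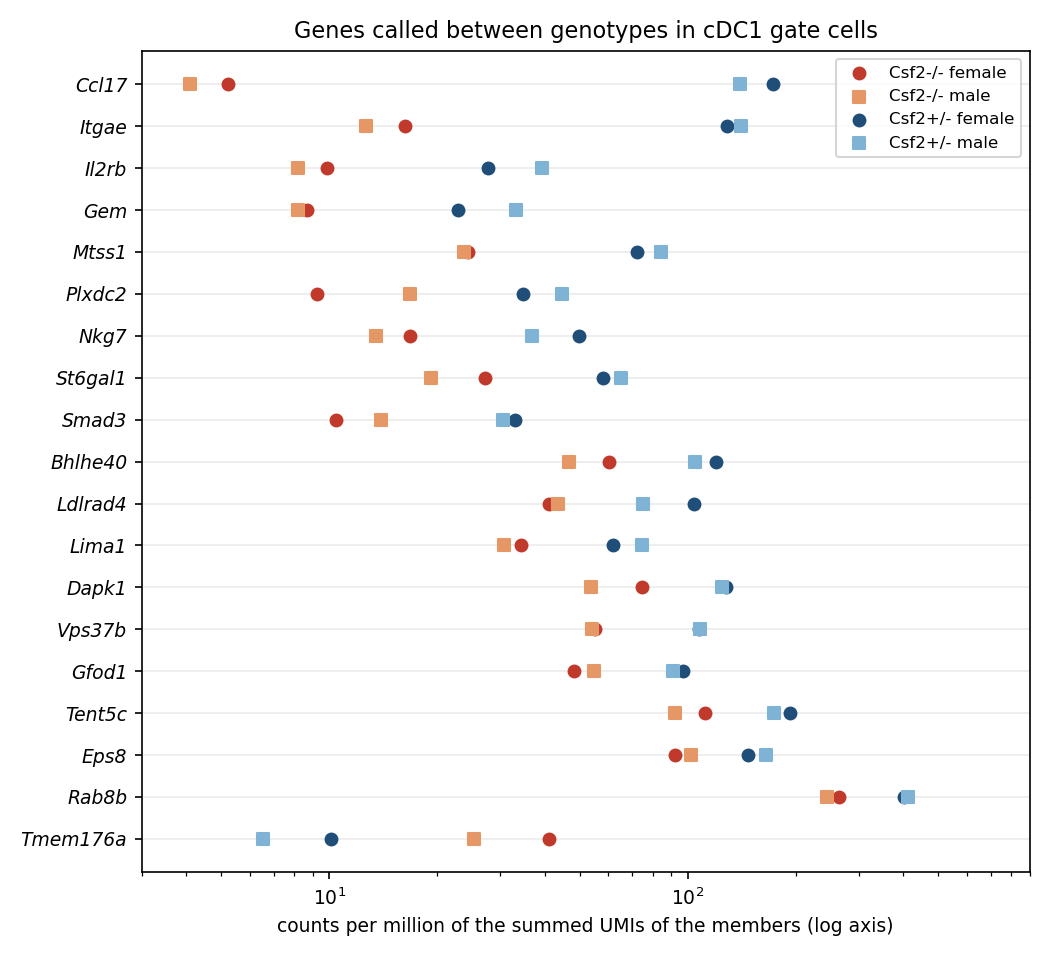
The level of 19 of the 20 genes called between genotypes in cDC1s, in each library in CPM of the summed UMIs (log axis). Red and orange points are the Csf2-/- female and male libraries, dark and light blue points the Csf2+/- female and male libraries, and in each row the colours do not overlap.

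Ccl17, a ligand of the receptor CCR4 on T cells, had the largest difference. It stood at 5.22 and 4.09 CPM in Csf2-/- and 173 and 140 CPM in Csf2+/- cDC1s, 33.6-fold higher in the Csf2+/- mean (log2 change -5.10, SE 0.23, edgeR adjusted p = 5.49e-07). Both Csf2-/- libraries lay far below both Csf2+/- libraries. The level came from few cells. A Ccl17 UMI was seen in 6 of 91 and 6 of 121 Csf2-/- cDC1s and in 18 of 109 and 15 of 104 Csf2+/- cDC1s. The 2 cells with the most Ccl17 held 44.4% and 60.0% of its UMIs in the Csf2-/- libraries and 89.3% and 67.5% in the Csf2+/- libraries. Without these cells the levels were 2.95 and 1.66 CPM in Csf2-/- and 18.8 and 46.1 CPM in Csf2+/- cDC1s, so the groups remained apart with a smaller gap. In the Ccr7-positive dendritic gate Ccl17 was far more abundant, at 1122 and 631 CPM in Csf2-/- and 2562 and 1739 CPM in Csf2+/- glands, and the groups were apart as well. Without each library's 2 highest cells, the other 19 called genes kept their groups apart too.

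The 250 bases before the start of Ccl17 are shown because the gene is the most changed one and the window holds the letters TTCNNNGAA, the core spacing bound by STAT5, which are in capitals at 99 to 91 bases before the start. The sequence is the RefSeq reference of build GRCm38.p6, mouse chromosome 8, plus strand, 5′ to 3′.
Ccl17: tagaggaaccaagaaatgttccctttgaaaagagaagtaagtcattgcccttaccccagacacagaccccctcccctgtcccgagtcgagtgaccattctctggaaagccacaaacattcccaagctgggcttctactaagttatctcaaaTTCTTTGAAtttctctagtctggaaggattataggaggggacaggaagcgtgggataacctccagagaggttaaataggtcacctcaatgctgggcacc
The motif reads the same on both strands and no other motif was searched. Among the called genes, 9 of 20 matched a window in the table and 2 of these held the letters, Ccl17 and Nkg7. The letters occur in 8.13% of 27025 genes with a window. The match is a description of the letters and shows no binding.

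Itgae, the gene of CD103, showed the second largest difference, spread over many more cells. Its level was 16.2 and 12.7 CPM in Csf2-/- cDC1s, against 129 and 141 CPM in Csf2+/- cDC1s (log2 change -3.26, SE 0.18, edgeR adjusted p = 1.87e-06). The groups were far apart, with a Csf2+/- mean 9.33-fold higher. An Itgae UMI was found in 12 of 91 and 17 of 121 Csf2-/- cells, 13.2% and 14%, against 70 of 109 and 72 of 104 Csf2+/- cells, 64.2% and 69.2%. The exact 95% binomial intervals, which cover counting error only, ran from 7.0 to 21.9% and 8.4 to 21.5% in the Csf2-/- libraries, and from 54.5 to 73.2% and 59.4 to 77.9% in the Csf2+/- libraries. The exact two-sided permutation p over libraries was 0.333, the smallest this design allows. With every cell thinned to 3000 UMIs, which left out 1 cell in each female library, 3.33% and 1.65% of Csf2-/- and 24.1% and 24% of Csf2+/- cDC1s kept an Itgae UMI. The highest count in a cell was 7 and 4 UMIs in the Csf2-/- and 21 and 24 UMIs in the Csf2+/- libraries.

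**Figure D2:**
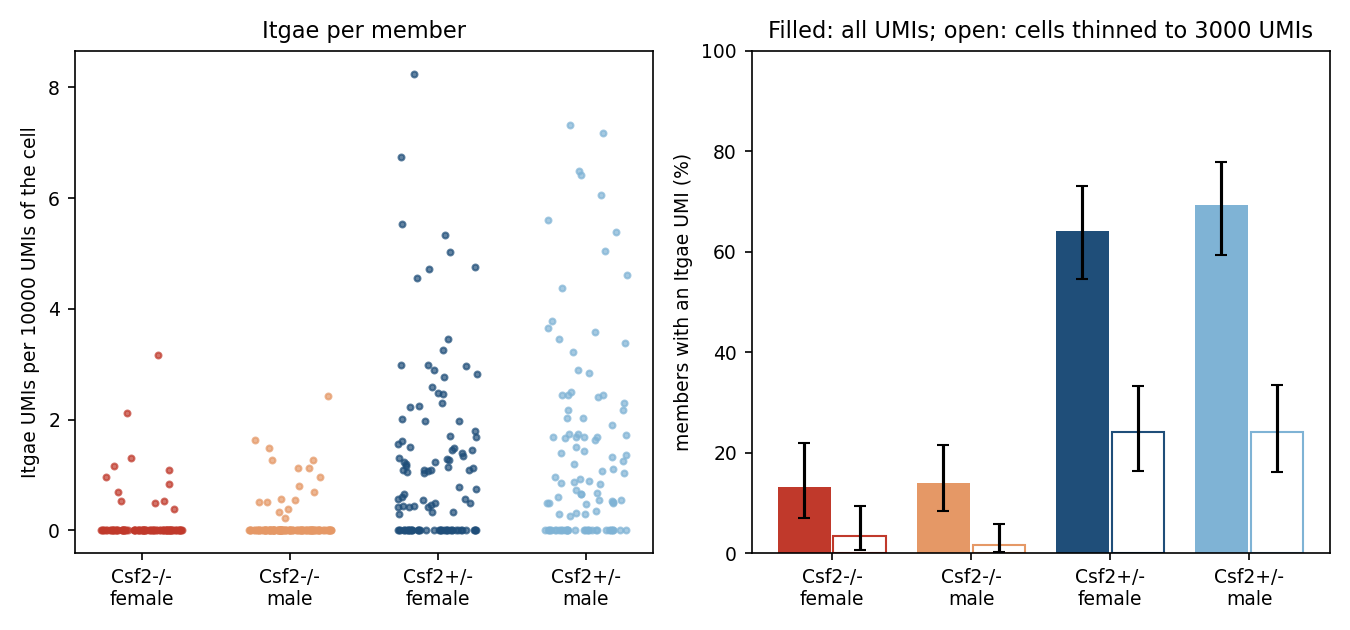
Left, Itgae UMIs per 10000 UMIs of each cDC1, with 1 point per cell. Right, the share of cDC1s with an Itgae UMI in each library, filled for all UMIs and open after thinning each cell to 3000 UMIs, with exact 95% binomial intervals as bars. The Csf2-/- shares of 13.2% and 14% lie below the Csf2+/- shares of 64.2% and 69.2%.

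Before thinning, the Itgae share of Csf2-/- cDC1s was nevertheless above the share in gates that should lack the gene, of which macrophages were read less deeply. In the Csf2-/- female and male cDC1s the 2 highest cells held 46.4% and 22.6% of the Itgae UMIs. Leaving out cells with at least 2 UMIs of defining genes of other lineages took these UMIs from 28 to 13 and from 31 to 28. In the Csf2+/- female and male cDC1s the same step took the Itgae UMIs from 292 to 167 and from 323 to 258. In gated macrophages an Itgae UMI was seen in 1.22% and 1.22% of the Csf2-/- and 1.56% and 1.49% of the Csf2+/- barcodes, at median depths of 10749 and 11858 UMIs and of 12025 and 11654.5 UMIs. In gated cDC2s the share was 0.794% and 1.8% for Csf2-/-, against 1.86% and 0.709% for Csf2+/- glands. Gated T cells, where CD103 marks a subset, held Itgae at 56.8 and 42.9 CPM in Csf2-/- and 56.1 and 50.7 CPM in Csf2+/- glands, with overlapping groups. Gated NK cells and other innate lymphoid cells (NK/ILC) had 27.5 and 20.3 CPM, against 22.9 and 14.6 CPM, also overlapping. In the Ccr7-positive dendritic gate Itgae stood at 0 and 1.47 CPM in Csf2-/- glands, from 0 and 1 UMIs, against 6.84 and 7.88 CPM in Csf2+/- glands, from 10 and 9 UMIs. The genotypes were thus apart there too, on few counts, and overlapped in the T and NK/ILC gates, where no test of the difference between gates was run.

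cDC1s with and without an Itgae UMI were compared within each library as a description, since the split uses expression and depth. Xcr1 was higher in cells with an Itgae UMI in all 4 libraries, at 356 against 210 and 449 against 227 CPM in the Csf2-/- libraries and 289 against 215 and 425 against 190 CPM in the Csf2+/- libraries. Cadm1, an adhesion molecule of cDC1s, was likewise higher in cells with an Itgae UMI, at 893 against 434 and 495 against 384 CPM in Csf2-/- cells and 831 against 385 and 846 against 306 CPM in Csf2+/- cells. Cd209a ran the other way, at 0 against 22.3 and 16.4 against 35.1 CPM in Csf2-/- cells and 19.5 against 106 and 0 against 99.6 CPM in Csf2+/- cells. Median depth of cells with and without an Itgae UMI was 19144 against 16906 and 19484 against 18878 UMIs in Csf2-/- libraries, and 20098.5 against 19784 and 20495 against 22145 UMIs in Csf2+/- libraries. Ccl17 showed no common direction in Csf2+/- cells, at 260 against 6.4 CPM in the female and 34.1 against 364 CPM in the male library.

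Mtss1, which encodes an actin-binding membrane-bending protein, was the third gene by p-value. It stood at 24.3 and 23.7 CPM in Csf2-/- and 72.2 and 84.3 CPM in Csf2+/- cDC1s (log2 change -1.72, SE 0.17, edgeR adjusted p = 0.00123). A Mtss1 UMI was seen in 26.4% and 25.6% of Csf2-/- cells, against 56.9% and 58.7% of Csf2+/- cells. After thinning the mean shares were 6.78 ± 1.41% and 19.8 ± 0.806% (SD, n = 2 per genotype). Unlike Itgae, Mtss1 was also expressed and lower in gated cDC2s, at 38.2 and 38.8 CPM in Csf2-/- and 156 and 147 CPM in Csf2+/- cells (log2 change -2.0, edgeR adjusted p = 8.01e-07). In Fn1-positive myeloid cells it had 64.1 and 59.2 CPM, against 245 and 245 CPM. In gated macrophages the groups overlapped, at 158 and 208 CPM in Csf2-/- and 195 and 238 CPM in Csf2+/- cells.

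**Figure D3:**
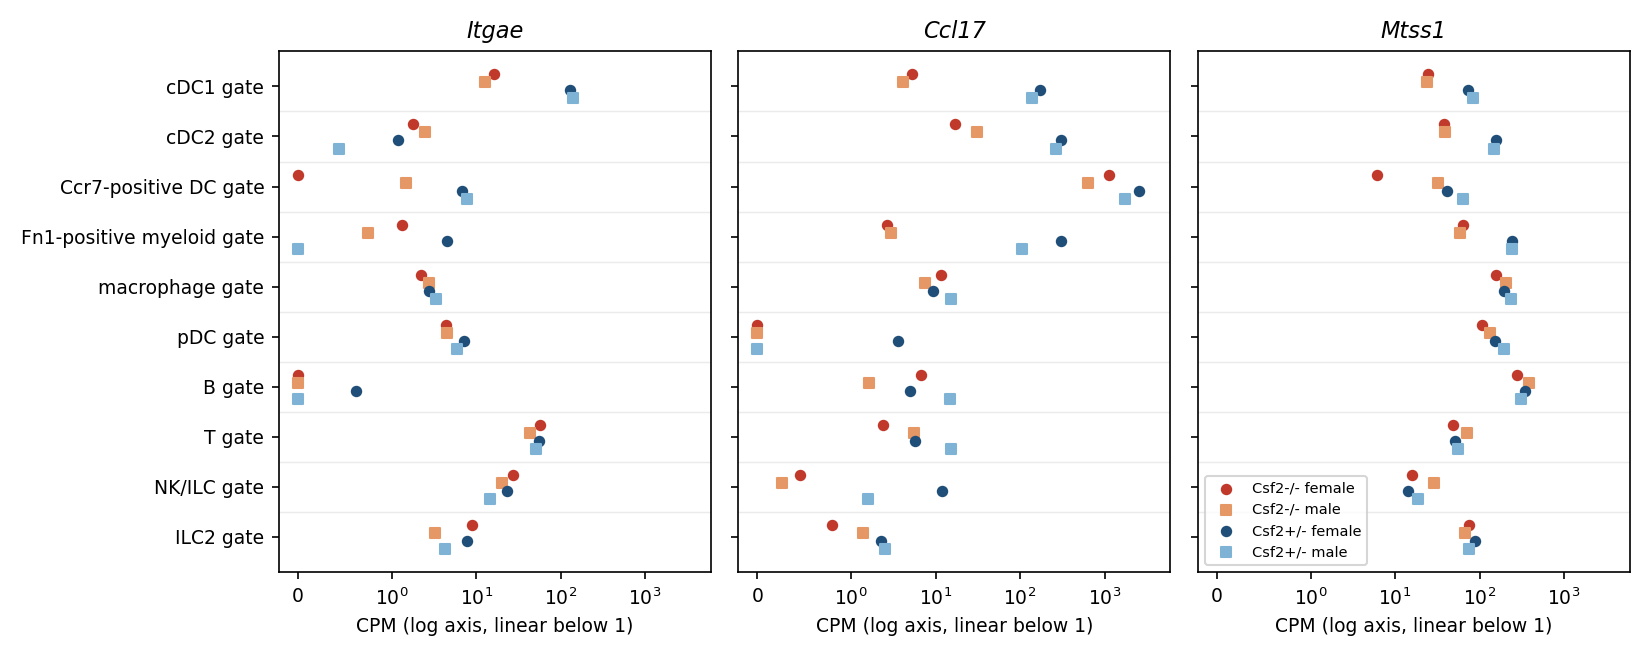
Levels of Itgae, Ccl17 and Mtss1 in each gate and library in CPM (log axis, linear below 1), with Csf2-/- libraries in red and orange and Csf2+/- libraries in blue. Both Csf2-/- libraries lie below both Csf2+/- libraries for all 3 genes in the cDC1 and Ccr7-positive dendritic gates, and for Ccl17 and Mtss1 in the cDC2 and Fn1-positive myeloid gates. Ccl17 is apart in this way in the T, NK/ILC and ILC2 gates too, at no more than 15.1 CPM. So are Mtss1 and Itgae in the plasmacytoid (pDC) gate, Itgae there on 1 or 2 UMIs per library.

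Among signalling and transcription genes, Smad3, a transducer of TGF-beta signals, was lower in Csf2-/- cDC1s at 10.4 and 13.9 CPM, against 33.0 and 30.6 CPM (log2 change -1.38, edgeR adjusted p = 0.0409). Ldlrad4, an inhibitor of the same pathway, was lower as well at 41.1 and 43.4 CPM, against 104 and 75.1 CPM (log2 change -1.10, edgeR adjusted p = 0.0385). Bhlhe40, a transcription factor that GM-CSF induces in myeloid cells, stood at 60.3 and 46.6 CPM in Csf2-/- and 120 and 105 CPM in Csf2+/- cells (log2 change -1.10, edgeR adjusted p = 0.0281). The small GTPase gene Gem had 8.69 and 8.18 CPM, against 22.9 and 33.2 CPM (log2 change -1.75, edgeR adjusted p = 0.0381). Both genotypes were fully separated in each of these genes. Gem was far higher in the NK/ILC gate, at 346 and 304 CPM in Csf2-/- and 363 and 363 CPM in Csf2+/- glands. Its cDC1 UMIs were 15 and 20, against 52 and 76. Without cells holding at least 2 UMIs of defining genes of other lineages they were 7 and 8, against 19 and 45. TGF-beta itself, Tgfb1, was at 84.0 and 89.6 CPM in Csf2-/- and 115 and 135 CPM in Csf2+/- cells and did not pass the test (log2 change -0.54, edgeR adjusted p = 0.122).

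Further genes were called lower. Plxdc2 stood at 9.27 and 16.8 CPM in Csf2-/- and 34.8 and 44.6 CPM in Csf2+/- cDC1s, a log2 change of -1.57. St6gal1, which adds sialic acid to glycoproteins, had 27.2 and 19.2 CPM, against 58.1 and 65.1 CPM, a log2 change of -1.45. Vps37b, a subunit of the endosomal ESCRT-I complex, was at 55.0 and 54.0 CPM, against 108 and 108 CPM, a log2 change of -1.0. Each of these passed the test, with edgeR adjusted p of 0.0397, 0.0244 and 0.0155 in that order. Vps37b was far higher in the NK/ILC gate, at 1299 and 1077 CPM in Csf2-/- and 1568 and 1376 CPM in Csf2+/- glands. The actin regulators Lima1 and Eps8, the kinase Dapk1, Gfod1, Tent5c and the small GTPase Rab8b had log2 changes between -1.10 and -0.68 and edgeR adjusted p between 0.0381 and 0.0409. Their levels ran from 30.7 CPM for Lima1 in Csf2-/- males to 411 CPM for Rab8b in Csf2+/- males.

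Tmem176a, an endosomal membrane protein expressed in cDC2s and other immune cells, was the gene called higher in Csf2-/- cDC1s. It had 41.1 and 25.4 CPM in Csf2-/- and 10.1 and 6.55 CPM in Csf2+/- cells (log2 change 1.95, SE 0.33, edgeR adjusted p = 0.0397). Its partner Tmem176b stood at 49.3 and 40.1 CPM, against 22.4 and 17.9 CPM, and did not pass (log2 change 1.12, edgeR adjusted p = 0.0756). In gated cDC2s Tmem176a was far higher, at 433 and 426 CPM in Csf2-/- and 341 and 369 CPM in Csf2+/- cells. The 2 highest cells held 56.3% and 40.3% of the Tmem176a UMIs of Csf2-/- cDC1s and 34.8% and 60.0% of those of Csf2+/- cDC1s. The call was lost without the Csf2+/- male library (log2 change 1.66, edgeR adjusted p = 0.0983), without doublets (0.0550) and without dividing cells (0.670).

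Il2rb, the IL-2 and IL-15 receptor beta chain, and Nkg7, a protein of cytotoxic granules, were also called lower, and both are markers of NK cells. Il2rb stood at 9.85 and 8.18 CPM in Csf2-/- and 27.7 and 39.3 CPM in Csf2+/- cDC1s (log2 change -1.92, edgeR adjusted p = 0.0244). Nkg7 had 16.8 and 13.5 CPM, against 49.7 and 36.7 CPM (log2 change -1.54, edgeR adjusted p = 0.0381). Nkg7 UMIs came from 8 and 8 Csf2-/- and 10 and 8 Csf2+/- cells, and the 2 highest cells held 79.3% and 81.8%, against 61.1% and 60.7%, of them. Of 9 NK and ILC1 markers 6 were tested, 1 was called lower and 5 had values below 0, and their summed level was 173 and 140 CPM in Csf2-/- and 223 and 235 CPM in Csf2+/- cDC1s. Ncr1, a defining NK receptor, stood at 1.16 and 0.818 CPM, against 7.04 and 9.17 CPM (log2 change -3.02, edgeR adjusted p = 0.0756). At least 2 UMIs of NK/ILC markers were present in 49.5% and 42.1% of Csf2-/- and 52.3% and 45.2% of Csf2+/- cDC1s. Klrk1 counts in both the summed level and this share. It stood at 96.8 and 104 CPM in Csf2-/- and 97.3 and 94.4 CPM in Csf2+/- cDC1s. An Nkg7 UMI was seen in 8.79% and 6.61%, against 9.17% and 7.69%. Which markers supplied the UMIs was not tested. Both calls were lost without doublets, with log2 changes of -1.51 for Il2rb (edgeR adjusted p = 0.271) and -0.55 for Nkg7 (edgeR adjusted p = 0.710), and without dividing cells (edgeR adjusted p of 0.0658 and 0.803). Once cells with at least 2 UMIs of defining genes of other lineages, Nkg7 itself among them, were left out, Nkg7 had 5 and 5 UMIs in Csf2-/- and 3 and 3 in Csf2+/- cDC1s. Il2rb, which is not one of the defining genes, had 4 and 4 UMIs in Csf2-/- and 5 and 3 in Csf2+/- cDC1s. The lower level in Csf2-/- cells was no longer seen in either gene, and both fell below the low-count filter. In that setting 17 of the 20 calls were kept, Ccl17, Itgae and Mtss1 among them, and Vps37b was lost.

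The cDC1 identity genes as a group were mostly not called. Of 28 listed, 24 were tested, of which Itgae alone was called, with 9 values above and 15 below 0 and a median log2 change of -0.13, where the median over all genes was 0.00. In 10 members both Csf2-/- libraries lay below both Csf2+/- libraries and in 3 above, where 19.9% and 21.0% of all genes did so. An unadjusted edgeR p under 0.05 was seen in 6 members, against 954 of 8969 genes outside the rule. Irf8 stood at 1354 and 1470 CPM in Csf2-/- and 1380 and 1385 CPM in Csf2+/- cells, and Batf3 at 207 and 213 CPM, against 188 and 191 CPM. Wdfy4 was at 975 and 1015 CPM, against 996 and 1178 CPM. None of these genes moved past the test. Naaa, an enzyme of lipid amide breakdown, had 708 and 788 CPM, against 882 and 834 CPM (log2 change -0.21, edgeR adjusted p = 0.493). Cadm1 came closest, at 500 and 401 CPM in Csf2-/- and 678 and 673 CPM in Csf2+/- cells (log2 change -0.59, SE 0.13, edgeR adjusted p = 0.104). Clnk, an adaptor protein, had 16.8 and 14.3 CPM, against 34.8 and 28.4 CPM (log2 change -1.05, edgeR adjusted p = 0.111). Its UMIs were 29 and 35, against 79 and 65. Without cells holding at least 2 UMIs of defining genes of other lineages they were 20 and 32, against 35 and 38. Xcr1, described only because it chose the cells, was at 231 and 260 CPM in Csf2-/- and 263 and 349 CPM in Csf2+/- cells, and Clec9a at 308 and 279 CPM, against 309 and 365 CPM. Cd207 and Cd8a, carried by cDC1s of some other organs, were below the low-count filter.

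In the GM-CSF pathway the receptor genes were not called. Of 16 receptor and related genes 14 were tested, with 5 values above and 9 below 0, 0 calls and a median of -0.11, and 4 had an unadjusted p under 0.05. Csf2rb stood at 75.3 and 63.8 CPM in Csf2-/- and 122 and 91.7 CPM in Csf2+/- cDC1s (log2 change -0.65, edgeR adjusted p = 0.164). A Csf2rb UMI was seen in 59.3% and 57.0% of Csf2-/- and 71.6% and 72.1% of Csf2+/- cells. Its close copy Csf2rb2, the chain used by mouse IL-3 alone, had 8.69 and 11.9 CPM, against 28.6 and 20.1 CPM (log2 change -1.23, edgeR adjusted p = 0.117), and reads of the 2 genes may be split uncertainly. Csf2ra overlapped, at 136 and 111 CPM in Csf2-/- and 121 and 94.4 CPM in Csf2+/- cells, so the transcripts of both receptor chains were present in cells lacking the ligand. Jak2 was at 144 and 153 CPM, against 180 and 211 CPM (log2 change -0.40, edgeR adjusted p = 0.193).

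STAT5-induced and GM-CSF-induced genes leaned lower. Like the other lists here, this one was chosen with earlier results of these data known, so the lean is not independent evidence. Of 25 listed 21 were tested, 19 had values below 0 and 2 above, and 2 were called lower, Ccl17 and Itgae. The median was -0.48, and 13 members had both Csf2-/- libraries below both Csf2+/- libraries while 2 had them above, where 19.9% of all genes lay below and 21.0% above in this way. Cish, a feedback inhibitor induced by STAT5, stood at 2.32 and 2.86 CPM in Csf2-/- and 11 and 5.24 CPM in Csf2+/- cells (log2 change -1.63, edgeR adjusted p = 0.290). These levels rest on 4 and 7, against 25 and 12 UMIs. In gated group 2 innate lymphoid cells Cish stood at 281 and 303 CPM, against 289 and 280 CPM. The survival gene Bcl2l1 had 26.7 and 10.6 CPM, against 51.9 and 43.2 CPM (log2 change -1.44, edgeR adjusted p = 0.185). Both showed separate groups without passing the test. A list of 8 genes seen lower in Csf2-/- dendritic cells in earlier looks at these data had 7 tested, 7 below 0 and 3 called (Ccl17, Itgae and Mtss1), which is not independent evidence. Flrt3 of that list was listed at 0 UMIs in both Csf2-/- libraries, against 3.08 and 1.31 CPM in Csf2+/- cells.

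Of 17 Bcl2 family genes 14 were tested with 0 calls, 6 at an unadjusted p under 0.05, 11 values below 0 and a median of -0.18. Bcl2a1a, an anti-death member, stood at 76.5 and 43.0 CPM in Csf2-/- and 176 and 146 CPM in Csf2+/- cells (log2 change -1.48, edgeR adjusted p = 0.123), and it shares near-identical copies, among them Bcl2a1d (log2 change -0.69). Mcl1 was at 541 and 549 CPM, against 606 and 584 CPM, and the death effector Bax at 191 and 197 CPM, against 143 and 152 CPM (log2 change 0.38, edgeR adjusted p = 0.194). None of these passed the test, and the shared sequences of the Bcl2a1 genes make the level of each copy uncertain.

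**Figure D4:**
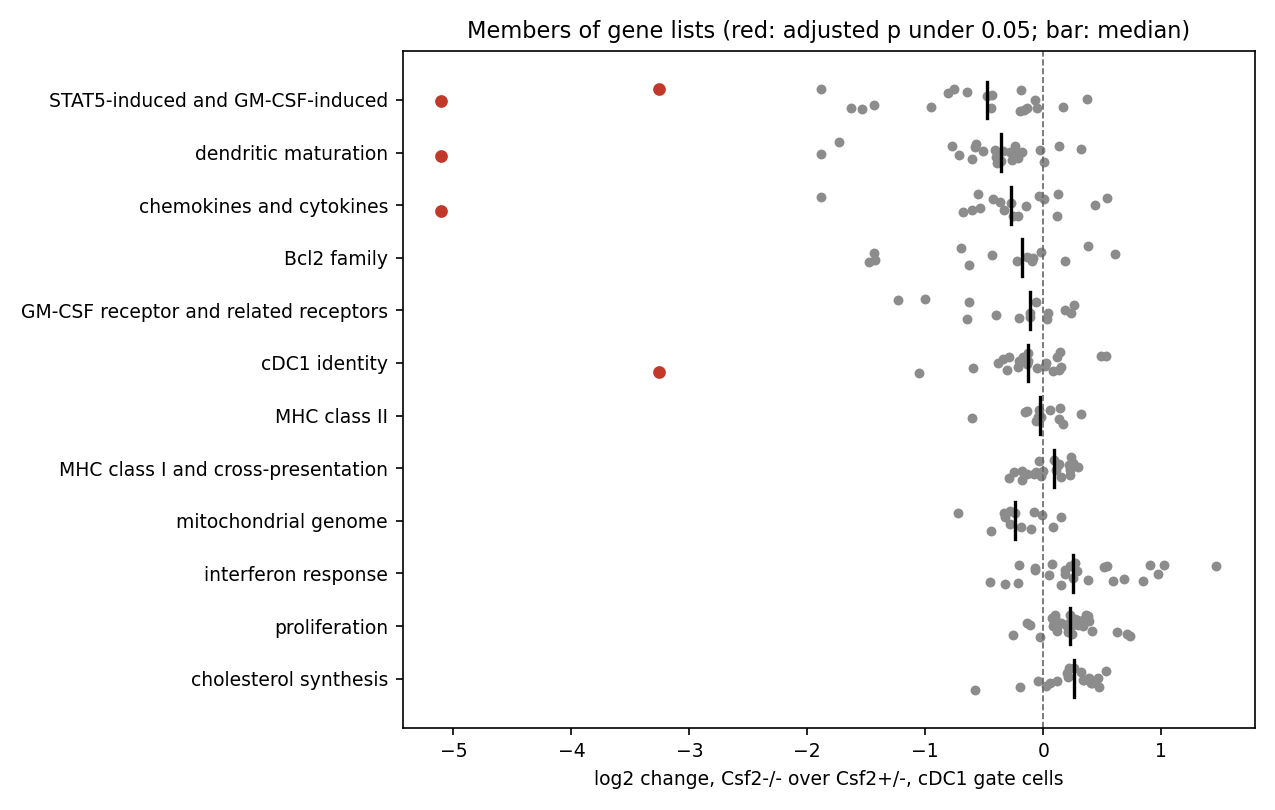
Log2 change, Csf2-/- over Csf2+/-, of the tested members of 12 gene lists in cDC1s, with 1 point per gene, red where the edgeR adjusted p is under 0.05, and a bar at the median. The STAT5-induced and GM-CSF-induced list has its median at -0.48, maturation genes at -0.36 and interferon genes at 0.25.

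Genes of dendritic maturation, which prepare a cell for contact with T cells, had 25 of 30 tested, 22 below and 3 above 0, 1 called lower (Ccl17) and a median of -0.36. The groups were apart downward in 16 members and upward in 0, against 19.9% and 21.0% of all genes. Stat4, a transducer of interleukin-12 signals, stood at 6.37 and 6.14 CPM in Csf2-/- and 15.8 and 25.3 CPM in Csf2+/- cDC1s (log2 change -1.73, edgeR adjusted p = 0.0730). These levels came from 11 and 15 Csf2-/- and 36 and 58 Csf2+/- UMIs. Without cells holding at least 2 UMIs of defining genes of other lineages, 4 and 5 Csf2-/- and 3 and 7 Csf2+/- UMIs remained, with overlapping groups. Ccl22, like Ccl17 a CCR4 ligand, had 42.3 and 16.0 CPM, against 79.7 and 122 CPM (log2 change -1.88, edgeR adjusted p = 0.418), with 2 cells holding 73.5% of its UMIs in the Csf2+/- male library. The costimulatory ligands Cd80 and Cd86 were at 29.6 and 18.0 CPM, against 41.8 and 36.7 CPM, and at 437 and 339 CPM, against 549 and 474 CPM, and passed no test (log2 changes -0.77 and -0.41). Marcksl1 (-0.57) and Cd83 (-0.27) also missed it. Cells with at least 2 Ccr7 UMIs, the migrating form, were outside the rule. Their own gate was smaller in Csf2-/- glands, with 34 and 41 cells, against 73 and 61 (log2 change of the share -0.91, edgeR adjusted p = 0.0494). With the 3 dendritic gates as denominator that call was kept (log2 change -0.71, edgeR adjusted p = 0.00151). The call was kept too with sex as a replicate block (0.0182) and with at least 5 UMIs of Xcr1 and Clec9a (0.0496). It was lost without doublets (edgeR adjusted p = 0.131), after thinning (0.336) and with at most 5% mitochondrial UMIs (0.0514). It was also lost without the Csf2-/- female (0.0767), the Csf2+/- female (0.460) and the Csf2+/- male library (0.172).

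Antigen presentation genes were close to balanced. Of 14 MHC class II genes 12 were tested, 0 were called, 5 were above and 7 below 0 and the median was -0.03, with H2-DMb1 at 926 and 811 CPM in Csf2-/- and 779 and 756 CPM in Csf2+/- cells. Of 23 genes of MHC class I and cross-presentation 23 were tested, 0 were called, 12 were above 0 and the median was 0.10. Psmb8, an immunoproteasome subunit, had 1024 and 1060 CPM in Csf2-/- and 882 and 887 CPM in Csf2+/- cells (log2 change 0.22, edgeR adjusted p = 0.444). Costimulation and checkpoint genes (15 of 19 tested, 4 above 0, median -0.13), Toll-like and C-type lectin receptors (14 of 25, 8 above, 0.06) and dead-cell uptake genes (11 of 18, 2 above, -0.32) had 0 calls.

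Among 25 chemokines and cytokines 19 were tested, 14 lay below 0, Ccl17 was called and the median was -0.27. Cxcl16, a ligand of CXCR6, had a log2 change of -0.56 (edgeR adjusted p = 0.178). Chemokine and migration receptors (15 of 21 tested, 8 above 0, median 0.02) had Itgae as their call. Of 27 transcription factors, all tested, 0 were called and the median was -0.18. Etv6, a repressor active in cDC1s, stood at 335 and 358 CPM in Csf2-/- and 468 and 484 CPM in Csf2+/- cells (log2 change -0.47, edgeR adjusted p = 0.112), and Runx3, which supports CD103 in T cells, had a log2 change of -0.59 (edgeR adjusted p = 0.177). Pan-dendritic genes (15 of 15 tested, 7 above 0, median -0.18) and cDC2 genes (13 of 15 tested, 6 above 0, -0.04) had 0 calls, with Flt3 at -0.21 and Zbtb46 at 0.03.

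Interferon response genes leaned higher without a call. Of 33 listed 25 were tested, 19 were above 0, 8 had an unadjusted p under 0.05 and the median was 0.25. Irf7, a master factor of the response, stood at 121 and 115 CPM in Csf2-/- and 82.7 and 62.0 CPM in Csf2+/- cDC1s (log2 change 0.68, edgeR adjusted p = 0.107), and Rsad2 and Mx1 had log2 changes of 0.90 and 1.03 with edgeR adjusted p of 0.283 and 0.376. Proliferation genes had 32 of 32 tested, 28 above 0, 0 called and a median of 0.23. Mki67 was at 115 and 204 CPM, against 109 and 97.4 CPM, and the kinetochore gene Cenpf at 70.7 and 78.6 CPM, against 49.7 and 38.9 CPM (log2 change 0.74, edgeR adjusted p = 0.103). The Csf2-/- male library, which also had the highest share of dividing cells, was highest in both. Cholesterol synthesis genes had 19 of 21 tested, 16 above 0, 0 called and a median of 0.26, with Fdps at 113 and 128 CPM, against 98.6 and 89.6 CPM.

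Further lists had 0 calls. Glycolysis and hypoxia (18 of 20 tested, 11 above 0) had a median of 0.02, lysosome (26 of 29, 11 above) -0.03 and dissociation stress (22 of 22, 12 above) 0.06. The mitochondrial genome had 13 of 13 tested, 11 below 0, 7 at an unadjusted p under 0.05 and a median of -0.24, with mt-Co3 at 2523 and 2892 CPM in Csf2-/- and 3442 and 3850 CPM in Csf2+/- cells (log2 change -0.44, edgeR adjusted p = 0.0831). Sex-linked genes had 4 of 6 tested and a median of -0.06. Rnd3 and Plac8 were among the uncalled genes with the lowest p-values upward, at log2 changes of 0.65 and 0.82 and edgeR adjusted p of 0.0908 and 0.122. Of 60 genes next to Csf2 on its chromosome 28 were tested, 0 were called and their median was -0.07. Among 746 tested genes of that chromosome 1 was called, Itgae, which lies 341 protein-coding genes away from Csf2.

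Marker lists of other cells had 0 calls other than Nkg7. The summed level of 12 macrophage markers, 5 of them tested, was 152 and 148 CPM in Csf2-/- and 152 and 150 CPM in Csf2+/- cDC1s. B cell markers (2 of 8 tested) summed to 134 and 198 CPM, against 142 and 128 CPM, T cell markers (1 of 9) to 10.4 and 21.7 CPM, against 23.8 and 27.5 CPM, and ILC2 markers (2 of 8) to 15.6 and 46.6 CPM, against 18.5 and 14.4 CPM. Plasmacytoid dendritic markers (7 of 8 tested, median 0.61) summed to 350.0 and 454 CPM, against 352 and 352 CPM, and monocyte markers (3 of 4) to 812 and 998 CPM, against 706 and 710 CPM. Markers of Retnla Fn1 myeloid cells (4 of 5) summed to 19.1 and 34.8 CPM, against 52.8 and 36.7 CPM. Neutrophil and red cell markers were not tested, with sums of at most 2.64 CPM. Epithelial markers (7 of 12) summed to 2580 and 773 CPM in Csf2-/- and 459 and 6505 CPM in Csf2+/- cells, with no common order by genotype. At least 2 epithelial UMIs were nevertheless present in 45.1% and 36.4% of Csf2-/- and 76.1% and 87.5% of Csf2+/- cDC1s. Their part in the results was not tested.

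Genotype effects in cDC1s were set against those in cDC2s, the nearest dendritic cells, gated by Cd209a, Clec10a and Mgl2 and holding 252 and 333 Csf2-/- and 323 and 282 Csf2+/- cells. Differences between the gates were called for NK-associated genes, Smad3 and others. Most were not called once cells carrying genes of other lineages were left out, a setting with fewer cells and 9544 genes tested. Some differences kept about their size there and others became smaller. Mtss1 was lower in Csf2-/- cells of both gates. In a model with the library as a term, the difference between the 2 genotype effects was tested with edgeR's quasi-likelihood test in 10136 genes outside the rule. In 15 (0.148%) the effect in cDC1s was higher and in 81 (0.799%) it was lower. The cDC2 gate itself had 286 calls among 10275 genes, 169 of them lower in Csf2-/- cells. The counts were 16 and 50 without the Csf2-/- male library, 30 and 82 with the Csf2-/- female left out, 29 and 141 with the Csf2+/- female left out and 20 and 108 when the Csf2+/- male was left out. DESeq2 called 3 and 7. With cells holding at least 2 UMIs of defining genes of other lineages left out of both gates, edgeR called 0 and 2 (Parp8 among them, named after its values were seen), DESeq2 was not run, and 698 genes had an unadjusted p under 0.05.

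**Figure D5:**
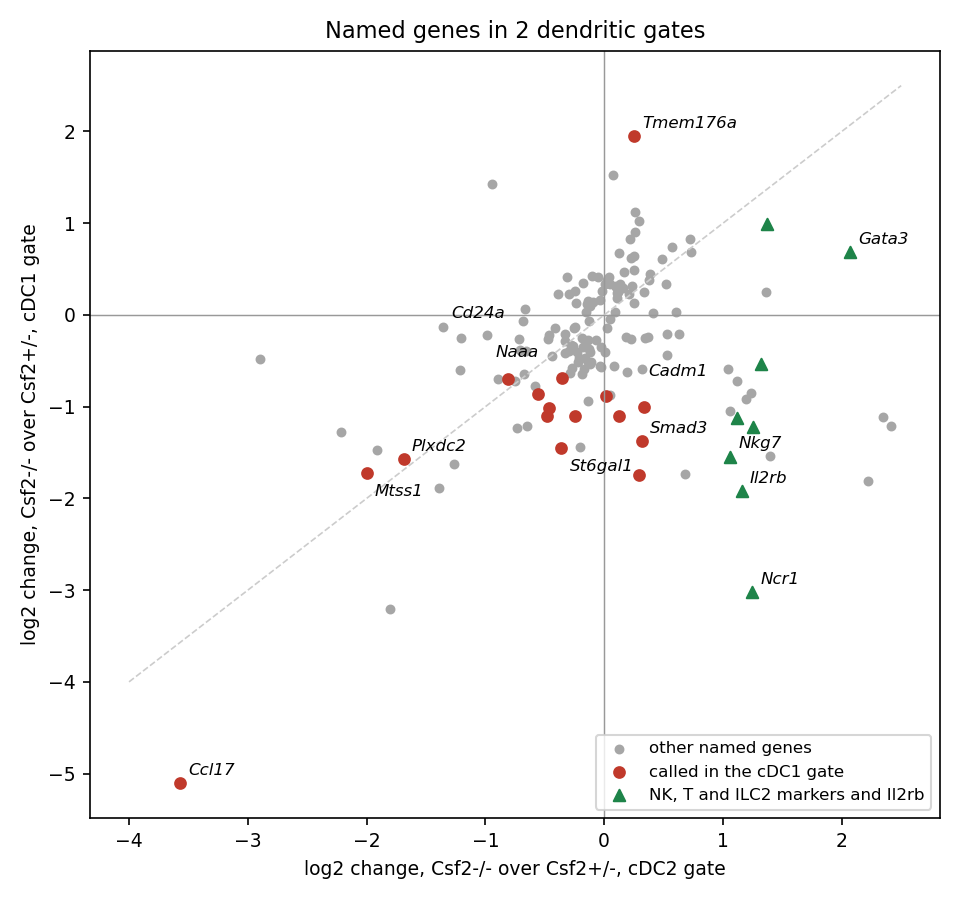
Log2 change, Csf2-/- over Csf2+/-, in cDC1s (vertical axis) against that in gated cDC2s (horizontal axis) for named genes tested in both gates, red where called in cDC1s and as green triangles for lymphocyte markers and Il2rb. Ccl17, Mtss1 and Plxdc2 lie at low values in both gates, while Ncr1, Il2rb and Nkg7 lie below 0 in cDC1s and above 0 in cDC2s. The dashed line marks equal change.

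Ccl17 was lower in Csf2-/- cells of both gates, at 17 and 31 CPM in Csf2-/- and 307 and 263 CPM in Csf2+/- cDC2s (log2 change -3.57, edgeR adjusted p = 0.00377). The difference between the 2 changes, cDC1s minus cDC2s, was -1.59 (SE 0.30, edgeR adjusted p = 0.00942), which DESeq2 did not call (adjusted p = 0.184) and which was -0.80 without the Csf2-/- male library (edgeR adjusted p = 0.677). The difference for Mtss1 was 0.26 with an edgeR adjusted p of 0.749. For Itgae it was -4.53 (SE 0.61, edgeR adjusted p = 0.000857), but gated cDC2s held 7 and 12 Itgae UMIs in Csf2-/- and 7 and 2 in Csf2+/- libraries, so their side rests on almost no counts. With cells holding defining genes of other lineages left out of both gates, cDC2s held 0 and 0 Itgae UMIs in Csf2-/- and 3 and 2 in Csf2+/- libraries, which gives no usable difference.

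Il2rb, Nkg7 and Ncr1 ran in opposite directions in the gates. In cDC2s Nkg7 stood at 97.9 and 67.0 CPM in Csf2-/- and 38.7 and 38.9 CPM in Csf2+/- cells (log2 change 1.06, edgeR adjusted p = 0.0178), and Il2rb at 76.3 and 58.6 CPM, against 30.5 and 28.8 CPM (log2 change 1.16, edgeR adjusted p = 0.00170). The differences between gates were -2.58 and -3.06. Without cells holding defining genes of other lineages, Csf2-/- cDC2s kept 7 and 9 Nkg7 UMIs, against 10 and 5 in Csf2+/- cDC2s. Il2rb UMIs numbered 20 and 12 in Csf2-/- cDC2s, against 12 and 11 in Csf2+/- cDC2s, and neither gene was tested. Cadm1, with a value below 0 in cDC1s, was higher in Csf2-/- cDC2s, at 42.5 and 51.8 CPM, against 21.5 and 23.9 CPM (log2 change 1.04, edgeR adjusted p = 0.00247). Smad3 was at 22.9 and 19.9 CPM in Csf2-/- and 16.5 and 17.3 CPM in Csf2+/- cDC2s, and the difference, cDC1s minus cDC2s, was -1.70 (edgeR adjusted p = 0.00564). Naaa went the other way, since it was at 111 and 122 CPM in Csf2-/- and 226 and 230 CPM in Csf2+/- cDC2s (log2 change -0.99, edgeR adjusted p = 0.000148), with a difference of 0.76. In the setting without cells of other lineages' genes the differences of Cadm1, Smad3 and Naaa were -1.58, -1.49 and 0.44. None of them was called there (edgeR adjusted p of 0.207, 0.237 and 0.262 in that order).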

How the data were processed

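Single-cell 3′ libraries (10x, kit v2, per the labels' protocols) of CD45+ salivary gland cells were analysed as deposited. Each deposited matrix gives raw UMI counts, whole numbers by gene and barcode. The submitters' processing notes name Cell Ranger 7.0.0 and the mouse build GRCm39. The design text says each library pooled 2 mice, and p-values measure the spread between such pools. Of 39395 barcodes, 37644 passed filters of 500 UMIs and 300 genes as minimum and 10% of UMIs from mt- genes as maximum. Of 26033 features 312 share a symbol and were kept apart by identifier. The rule and the gates for other cells used raw UMIs. The members, gene lists, gates and tests were chosen with earlier results of these data known.

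UMIs were summed per library over the members and tested with edgeR 4.0.16 (R 4.3.3, quasi-likelihood, robust, TMM, default low-count filter), with genotype as the only term, 2 residual degrees of freedom and Benjamini-Hochberg adjustment at 0.05. Levels in CPM were computed from these sums. The SE of a log2 change was taken from the change and its F statistic, as the change over the root of F. Shares of gates were tested with edgeR on cell numbers, and the contrast of cDC1s with cDC2s as an interaction with the library as a term. Intervals are exact binomial at 95% (Clopper-Pearson, scipy 1.17.1). Named genes were the called ones with a mean of at least 10 CPM, up to 4 per list by p-value, a fixed set, and up to 6 differences in each direction, and the text gives a part of these. The values of 1 called gene are not reported here. Alternatives were DESeq2 1.42.0, limma 3.58.1 (voom), RLE factors, no low-count filter, a replicate block, leaving out each library, other cell filters and thinning. Doublets were scored with Scrublet (scanpy 1.11.5). Its automatic threshold marked 0% and 0.0343% of barcodes in the Csf2+/- female and male libraries, so there the highest scores up to about the expected share of 7.65% and 7% were removed. On simulated data the genotype test called 72.9% of 96 genes with a log2 change of 1, 99% of 98 with a change of 2 and 0.0583% of 8571 unchanged genes, and the interaction test called 33.3% of 99, 93% of 100 and 0.0457% of 8746. For the interaction both gates were simulated from the levels and library sizes of cDC1s. Levels of cDC2s were not simulated, so its rates may differ in the real comparison. Each simulated gene took the spread fitted to its level. Spread particular to a gene, and UMIs held by few cells, were not simulated, so the rates of both tests may differ in the real data. The lists named in the report were searched for their members by symbol. Promoter letters come from RefSeq in build GRCm38.p6, which is not the build of the counts, so no coordinates are given.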

Additional observations from a re-analysis of the deposited data

Results flagged for a closer look

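The results below were set apart because the test of the difference between 2 genotype effects, that in cDC1s minus that in gated cDC2s, passed an adjusted p of 0.05 in edgeR. Of the genes called in cDC1s, the difference on the log2 scale was -1.59 for Ccl17, -4.53 for Itgae, -1.34 for Vps37b, -3.06 for Il2rb, -1.10 for St6gal1, -2.58 for Nkg7, -2.03 for Gem, -1.70 for Smad3 and 1.66 for Tmem176a. Of genes described without a call in cDC1s, it was -1.67 for Cadm1, 0.76 for Naaa, -0.74 for Flt3, 1.21 for Cd24a, -2.16 for Clnk, -2.42 for Stat4, 0.85 for Tmem176b and -4.30 for Ncr1. Cd24a, a surface glycoprotein, stood at 454 and 419 CPM in Csf2-/- and 430 and 516 CPM in Csf2+/- cDC1s, and at 33.3 and 47.5 CPM in Csf2-/- and 89.0 and 118 CPM in Csf2+/- cDC2s.

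Among the genes with the lowest p-values of the difference it was 0.44 for the lysosomal protein Psap, 0.93 for Uck2, 2.39 for Dcstamp and -1.87 for Ly6a. Dcstamp, a protein of cell fusion, stood at 1.78 and 1.23 CPM in Csf2-/- and 9.64 and 12.6 CPM in Csf2+/- cDC2s, whereas its levels in cDC1s overlapped. Ly6a, induced by interferon, was at 24.3 and 27.4 CPM in Csf2-/- and 46.2 and 38.4 CPM in Csf2+/- cDC1s, and at 43.0 and 51.4 CPM in Csf2-/- and 19.8 and 23.2 CPM in Csf2+/- cDC2s. The value of 10.80 for Ebf1, a B cell factor, depends on the handling of 0 counts, since its UMIs among cDC1s were seen in the Csf2-/- male library, at 10.6 CPM, and were 0 in the others. With cells holding defining genes of other lineages left out of both gates, each gene named here was either not called or not tested for this difference. Close to or beyond their main size were Ccl17 (-1.48), St6gal1 (-1.51), Gem (-1.89), Smad3 (-1.49), Cadm1 (-1.58) and Flt3 (-0.76). Smaller were Vps37b (-0.42), Clnk (-0.11), Stat4 (-0.71), Naaa (0.44), Cd24a (0.84) and Ly6a (-1.06). Tmem176a (1.33), Tmem176b (0.59), Psap (0.28), Uck2 (0.67) and Dcstamp (1.98) were smaller too. With 2 libraries per genotype no library could be tested as standing apart from its group.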

How the results depend on the processing

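The 20 genes called in cDC1s kept their direction in every alternative where they were tested, 245 alternatives also keeping the call and 56 not, and Ccl17 and Itgae kept it in all 15 where they were tested. The counts were less stable (higher and lower in Csf2-/-, main 1 and 19). They were 0 and 14 with limma-voom (976 genes at an unadjusted p under 0.05), 1 and 18 with DESeq2, each sharing 14 of the 20 calls, 57 and 220 with no low-count filter, 13 and 79 with at least 5 UMIs of Xcr1 and Clec9a, and 0 and 17 without Scrublet doublets, sharing 14. They were 2 and 19 without dividing cells, sharing 9 of the 20, 1 and 16 with cells thinned to 3000 UMIs, sharing 4 with 4260 genes tested, and 2 and 42 without cells with defining genes of other lineages, an alternative chosen after seeing the data. With the planned, wider other-lineage markers 11 and 15 Csf2-/- and 3 and 4 Csf2+/- cells remained, and the counts were 0 and 0 by edgeR (91 genes at an unadjusted p under 0.05, DESeq2 not run). With sex as a replicate block they were 24 and 133, with the 20 calls kept. The shared number marks the sex and no common animal or batch. Leaving out each library gave 3 to 65 higher and 26 to 237 lower.

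Differences between gates (main 15 and 81) were 3 and 7 with DESeq2, 69 and 167 with no filter, 55 and 113 with no limit on Fn1, 0 and 2 without cells with defining genes of other lineages, and 16 to 30 and 50 to 141 with a library left out. In the defining-gene setting the fitted Itgae difference of 0.65 rests on cDC2s with 0 and 0 Csf2-/- and 3 and 2 Csf2+/- UMIs and shows no direction, and that of Mtss1 was -0.076. After thinning to 3000 UMIs the gap in cells with a UMI was -21.6 points for Itgae (main -53.1, leave-one-out -55.6 to -50.6) and -13.0 for Mtss1 (main -31.8, -32.7 to -30.9). The share of cDC1s turned to 0.12 with dendritic cells as denominator, and ranged from -0.32 to 0.12 with a library left out.

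Uncalled genes near 0 changed sign. With a library left out Irf8 ranged from -0.000194 to 0.044, Tlr3 from -0.018 to 0.29, Id2 from -0.086 to 0.43, Flt3 from -0.41 to 0.033 and Zbtb46 from -0.18 to 0.19. Irf8 was -0.016 with at least 5 UMIs of Xcr1 and Clec9a and -0.018 without doublets, Tlr3 -0.053 without dividing cells, and Fdps -0.18 after thinning. With the planned other-lineage markers Naaa was 0.11, Septin3 0.62, Mki67 -0.11 and Pclaf -0.00103. The cause of these changes was not tested. With 91 to 121 cells and 1725743 to 2444117 UMIs per library, genes below about 10 CPM rest on few UMIs.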
